A study of Mus musculus with 24 samples.

Results

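The genes described here encode the proteins of the cytosolic ribosome, followed in murine pancreatic stellate cells (PSC) that were kept alone or shared a culture insert system with pancreatic cancer cells. A gene was taken as a member when GENCODE M21 annotated it as protein coding and its symbol began with Rpl or Rps followed by a digit, or was Rplp0, Rplp1, Rplp2 or Rpsa, leaving out the Rps6k kinases and symbols ending in -ps with or without a number. This gave 86 members of 53801 genes listed, 52 of the large (60S) and 34 of the small (40S) subunit by name. Of these, 9 are paralogs, gene copies or, for Rps19bp1, a binding protein and no part of the ribosome, which left 77 core members. Members lay on 19 chromosomes, and 85 of the 86 had a value above 0.

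The PSC came from wild-type (WT) C57BL/6J mice, with several pancreata pooled per isolation, and were used at an early passage. The partner cells were KPC cells, a single pancreatic tumour line from a female mouse that carried p48-Cre, which is active in pancreatic epithelium. PSC always grew on a porous membrane. The KPC cells lay on the well floor beneath it in the standard model, and on the underside of the same membrane in the inverse model. Both models had their own mono-cultured control PSC, and cells were taken at 24 h or 72 h, which made 8 groups of 3 libraries. Standard libraries started from 450 ng of RNA and inverse libraries from 120 ng, and in the inverse model PSC met KPC cells from seeding on, so that equal time labels stand for a longer shared culture there than in the standard model. Standard PSC, controls included, were seeded in a low glucose medium and changed to the co-culture medium when time counting began. Inverse PSC and their controls were seeded in the co-culture medium 24 h before that, without a later change. Model, medium history, amount of RNA and time in shared culture cannot be told apart.

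Ribosomal proteins assemble with ribosomal RNA in the nucleolus, and each subunit needs a single copy of nearly all of them, so that their genes are commonly expressed as a block. Their messages begin with a 5′ terminal run of pyrimidines (the TOP motif), through which LARP1 and the kinase mTOR adjust their translation to nutrients and growth factors, and MYC raises their transcription in growing cells. In activated stellate cells, which divide and secrete collagen matrix, ribosome supply is part of the machinery of protein synthesis.

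Promoter sequences held in the RefSeq table of build GRCm38.p6 matched 66 of the 86 members. The 8 stretches that follow run from 30 bases before to 12 bases from the RefSeq start and are shown because they belong to members that the results turn on: 3 that rose in inverse co-culture at 72 h (Rps18, Rpl28, Rpl13), 2 with large falls in inverse controls (Rpl35, Rpl38), Rps6, the ribosomal target of S6 kinase, and Rps27 with its copy Rps27rt. Capitals mark a run of at least 8 pyrimidines that starts with C. The choice does not stand for all changed members. No such run lies in these bases for Rpl12, Rpl37, Rpl10a and Rps3, which also rose, or for Rpl41 and Rps28, which also fell.
Rps18, chr17:33955654-33955695, minus strand: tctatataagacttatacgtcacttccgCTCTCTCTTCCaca
Rpl28, chr7:4792935-4792976, plus strand: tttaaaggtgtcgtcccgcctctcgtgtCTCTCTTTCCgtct
Rpl13, chr8:123102320-123102361, plus strand: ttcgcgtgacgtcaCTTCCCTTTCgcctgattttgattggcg
Rpl35, chr2:39005120-39005161, minus strand: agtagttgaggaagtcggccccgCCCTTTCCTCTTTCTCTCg
Rpl38, chr11:114668550-114668591, plus strand: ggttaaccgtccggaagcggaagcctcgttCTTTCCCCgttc
Rps6, chr4:86857356-86857397, minus strand: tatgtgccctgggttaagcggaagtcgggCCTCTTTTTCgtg
Rps27, chr3:90213637-90213678, minus strand: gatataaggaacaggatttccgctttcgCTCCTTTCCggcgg
Rps27rt, chr9:114982728-114982769, minus strand: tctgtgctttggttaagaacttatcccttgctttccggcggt

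A pyrimidine run of that kind within 50 bases of a listed start, read on the sense strand, was found for 53 of the 66 members (80.3%) and for 31.9% of the other genes with a window. The shorter sequence CTTTCC on the sense strand in the same 100 bases, which such a run can contain, was found for 21 members (31.8%) and for 5.37% of the other genes. CTTTTCC, in the same bases and strand, was found for 12.1% of the members and 1.45% of the others. In the whole window of 250 bases before to 50 after the start, CCGGAAG, the core letters of ETS factor motifs, was found on either strand for 26 members (39.4%) and for 9.86% of the others. The TATA box letters TATAAA within the 50 bases before the start were found for 1 member (1.52%) and 3.15% of the others, on the sense strand. In the 8 stretches, the run of Rps18, Rpl28, Rpl38, Rps6 and Rps27 lies at or within 2 bases of the RefSeq start, while Rps27rt has no run of 8.

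Ribosomal protein messages were among the most abundant in these PSC. Levels are given as FPKM, fragments per kilobase of the authors' gene length per 1000000 fragments, as deposited. The mean level over the 24 libraries had a median of 426 FPKM over the 77 core members, 74 of them lay above 100 FPKM, and 15 members were among the 100 highest genes of all. Rplp1 (1786 FPKM) and Rplp0 (1691 FPKM), of the stalk that recruits elongation factors, led the order, followed by Rps2 (1358 FPKM) and Rpsa (1000.5 FPKM), which is also known as the laminin receptor. The authors' lengths average over a gene's annotated transcripts. Long ones lower the level of some members, as for Rps3 with 1492 bases against 729 coding bases. Short ones raise the level of others, as for Rpl4 with 996 bases against 1257 coding bases. Counted per kilobase of coding sequence instead, a scale added after the levels were seen, Rpl41, which encodes a very short peptide, came first with 5148 fragments per 1000000 and kilobase, followed by Rplp1 with 2605, Rplp0 with 1558, Rps2 with 1332 and Rpsa with 1163. The rank correlation (Spearman) of both orders over the core members was 0.82. Rps20 moved from place 57 to place 8 and Rpl4 from place 5 to place 27. The order of members therefore depends on the length used, while fold changes do not.

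Paralogs with known tissue restriction were low. Rpl10l, a testis form of Rpl10, was listed at 0 in all 24 libraries, Rpl3l, the striated muscle form of Rpl3, had a mean of 0.0600 FPKM, and Rpl39l, the testis form of Rpl39, 0.101 FPKM. Their partners Rpl10, Rpl3 and Rpl39 had means of 797, 534 and 155 FPKM. Other paralogs were expressed: Rps27l, a p53 target, at a mean of 178 FPKM, Rpl22l1 at 68.7 FPKM beside Rpl22 at 163 FPKM, and Rpl7l1, which is linked to ribosome assembly, at 28.2 FPKM beside Rpl7 at 535 FPKM. Rpl36al stood at 1.28 FPKM beside Rpl36a at 146 FPKM, and all 50-base stretches of the coding sequence of Rpl36al occur in other annotated genes.

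Each library had 15932737 to 24798761 counted fragments, and 12277 to 13307 genes lay above 1 FPKM. The summed level of 10 fibroblast and stellate markers was 21451 to 39042 FPKM per library. The 5 epithelial markers summed to at most 39.6 FPKM. Epcam and Cdh1 had a median of 0, while Krt8, Krt18 and Krt19 reached 15.2, 11.7 and 11.6 FPKM. In each inverse co-culture group, 3 of the 5 passed 1 FPKM in at least 1 library. The 4 endothelial markers summed to at most 2.44 FPKM, with Cdh5 at a median of 0 and Tek at up to 2.15 FPKM. The 5 macrophage markers summed to at most 1013 FPKM, the 4 adipocyte markers to 22.7 to 829 FPKM, the 5 acinar markers to 6.31 to 20.1 FPKM, nearly all of it Cela1 with Amy2a5 at 0 throughout, and the 3 mesothelial markers to 0.0598 to 7.34 FPKM. In bulk RNA, fewer cells of a type and less RNA per cell cannot be told apart, and FPKM is a share of each library rather than an amount per cell.

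The members made up between 3.78% and 7.03% of the FPKM sum of a library. In standard controls the share was 6.78%, 6.55% and 5.57% at 24 h, and 5.72%, 4.99% and 4.67% at 72 h, so the lowest 24 h library lay below the highest 72 h library. Same-numbered standard libraries varied together, and within numbers 72 h minus 24 h was -1.06, -1.57 and -0.902 percentage points, lower in 3 of 3 pairs (exact paired permutation test, two-sided, p = 0.25, the smallest that 3 pairs allow). In inverse controls it was 6.43%, 6.60% and 6.23% at 24 h and 4.11%, 3.78% and 4.21% at 72 h, with a wide gap between both times. Inverse co-cultured PSC had 7.03%, 6.66% and 6.70% at 24 h and 5.24%, 4.78% and 5.18% at 72 h, above their controls at either time in every library. Standard co-cultured PSC had 6.38%, 6.69% and 5.86% at 24 h and 5.83%, 5.58% and 4.98% at 72 h, and these ranges overlapped those of their controls. Within replicate numbers, co-culture minus control was -0.401, 0.133 and 0.291 percentage points at 24 h, of both signs, and 0.108, 0.596 and 0.313 at 72 h, higher in 3 of 3 pairs (exact paired permutation test, p = 0.25). These paired differences were added after the values were seen.

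**Figure D1:**
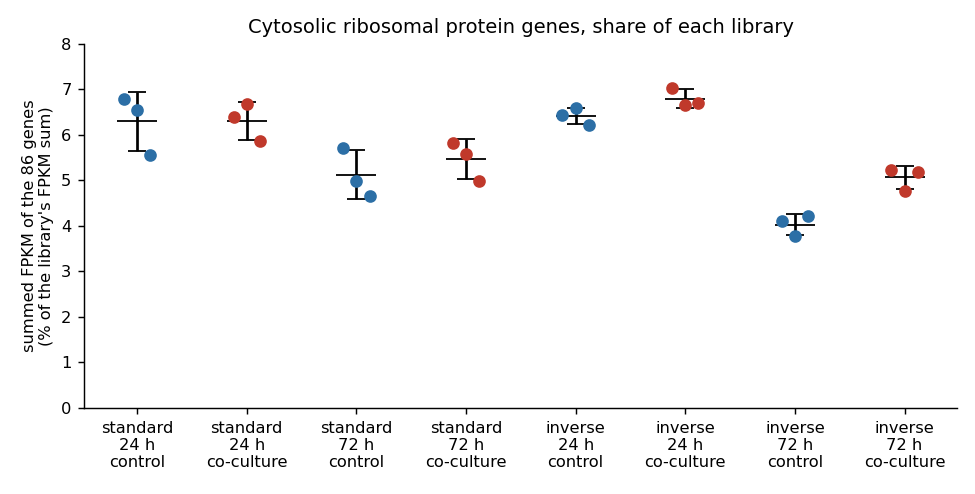
Summed FPKM of the 86 ribosomal protein genes as a percent of each library's FPKM sum (y axis, from 0) for the 8 groups (x axis), with a point per library, the mean as a line and the SD as a bar (n = 3). The lowest group is the inverse 72 h controls at 4.03% ± 0.226, and both inverse co-culture groups lie wholly above their controls.

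Among the comparisons between groups, the members' median moved furthest in mono-cultured PSC of the inverse model between 24 h and 72 h: 76 of 82 members tested fell and none rose (limma on log2(FPKM + 0.5), adjusted p under 0.05 over all genes tested). Among all 13092 genes tested in this comparison, 19.2% were called in either direction and 9.05% were lower. The members' median log2 fold change was -0.76, a level 0.592 times that at 24 h, against a median of 0.04 over all genes. Both subunits moved alike, with a median of -0.76 over 46 core members of the large subunit (44 called lower) and -0.75 over 31 of the small subunit (30 called lower). Rps20, a small subunit protein, had the smallest adjusted p of the members. Its level was 287, 295 and 299 FPKM at 24 h and 157, 140 and 157 FPKM at 72 h. Its log2 fold change was -0.96 (SE 0.085, adjusted p = 0.00127, limma).

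Among the 10 largest falls were several of the smallest ribosomal proteins. Rpl41 had 941, 876 and 797 FPKM at 24 h and 488, 349 and 423 FPKM at 72 h, a log2 fold change of -1.06 (SE 0.13). Rpl38, a large subunit protein linked to the translation of Hox messages, had 155, 179 and 121 FPKM at 24 h and 88.5, 65.2 and 68.2 FPKM at 72 h (log2 fold change -1.02). Rps28 of the small subunit had 189, 206 and 124 FPKM at 24 h and 88.2, 85.9 and 78.0 FPKM at 72 h (0.498 times). For these 3 genes no 72 h library reached the lowest 24 h library, although the 24 h libraries themselves spread widely for Rpl38 and Rps28. They were picked by calls and fold change on these same libraries, so the separation adds no support. The others were Rpl21 (log2 fold change -1.23), Rpl17 (-0.98), the stalk protein Rplp1 (-0.97), Rpl27a (-0.93), Rpl30 (-0.93) and Rpl35 (-0.91), all of the large subunit. Rpl21 had the largest fold change and the widest spread, with 93.9, 74.1 and 59.8 FPKM at 24 h and 22.2, 29.9 and 46.9 FPKM at 72 h.

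Members with a special role fell by similar amounts. Rplp1 had 2153, 2171 and 2078 FPKM at 24 h and 1214, 958 and 1104 FPKM at 72 h, and its stalk partners Rplp0 (log2 fold change -0.74, SE 0.091) and Rplp2 (-0.68, SE 0.096) fell with it. Rpsa fell with a log2 fold change of -0.77 and Rps6 with -0.66. Rpl5, Rpl11 and Rpl23, which bind MDM2 when ribosome assembly fails, had log2 fold changes of -0.57, -0.75 and -0.73, all called. Rps27a, made as a fusion with ubiquitin, went from 102, 116 and 94.5 FPKM to 62.5, 53.6 and 55.0 FPKM, a log2 fold change of -0.86. Rpl37a, for which the study had qPCR primers, fell with a log2 fold change of -0.79.

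The 6 members tested and not called were Rps27, Rps27rt, Rpl24, Rpl7a, Rps19bp1 and Rpl7l1. The log2 fold changes of Rps19bp1 (-0.30, SE 0.21) and Rpl7l1 (-0.24, SE 0.11) were among the smallest, and these encode no ribosome subunit protein or a paralog linked to assembly. Rpl7a had a log2 fold change of -0.57 with an SE of 0.19 (adjusted p = 0.0725, limma). Among partners of the paralogs, Rpl3 (-0.56), Rpl7 (-0.67), Rpl10 (-0.57), Rpl22 (-0.52), Rpl36a (-0.86), Rpl39 (-0.77) and Rps4x (-0.73) were called lower, as were the paralogs Rpl22l1 (-0.82) and Rps27l (-0.68). The adipocyte markers summed to 153 to 234 FPKM in the 24 h and 393 to 829 FPKM in the 72 h inverse controls, the macrophage markers to 61.5 to 71.0 and 106 to 198 FPKM, and the epithelial markers to at most 0.370 and 0.176 FPKM, and the part of the first 2 in this change was not tested. Without any single library of the comparison, 74 to 76 members were called.

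In standard controls the members were also lower at 72 h than at 24 h, by a smaller amount that did not pass the test. The median log2 fold change was -0.30 over 83 members, against 0.01 over all genes. A lower mean was found for 79 members and for 6308 of all 12963 genes. None was called, beside 0% of all genes, with limma or with voom on recovered fragments. An unadjusted p under 0.05 was found for 1 member (Rpl29, log2 fold change -0.49) and for 127 of all genes. With the replicate number as a block, which fits the pairing of standard libraries, still no member and 0% of all genes were called, while 58 members had an unadjusted p under 0.05 (1155 of all genes) and the smallest adjusted p of a member was 0.371 (limma). Rplp1 had 2380, 2046 and 1713 FPKM at 24 h and 1796, 1466 and 1362 FPKM at 72 h, so its groups overlapped, although within replicate numbers it was lower at 72 h in 3 of 3 pairs (72 h minus 24 h, -584, -581 and -351 FPKM).

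**Figure D2:**
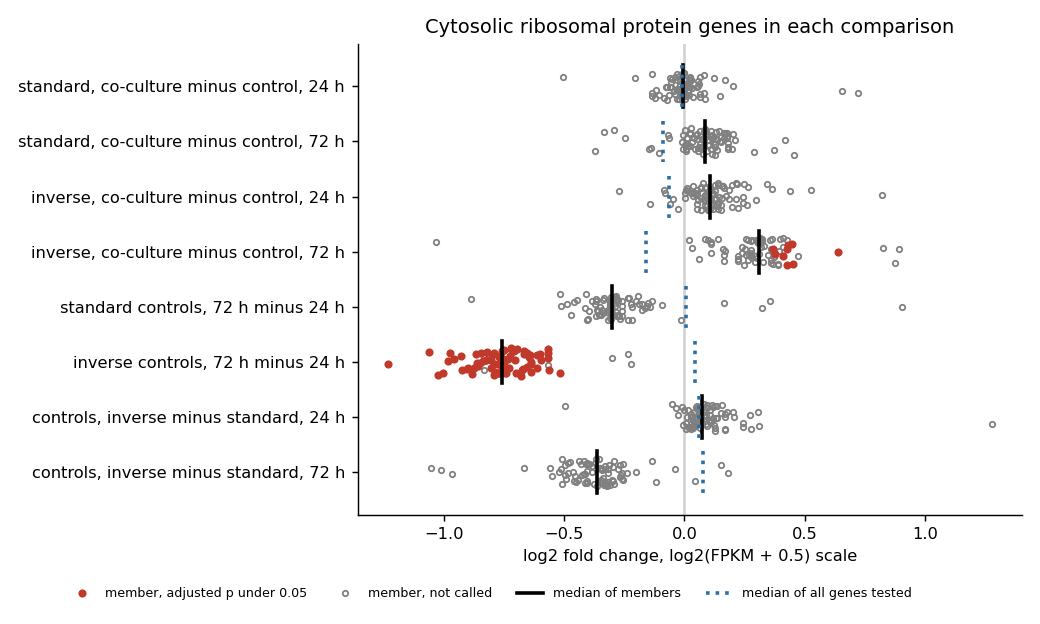
Log2 fold change on the log2(FPKM + 0.5) scale (x axis) of every member tested in 8 comparisons (y axis), filled where the adjusted p was under 0.05, with the median of the members as a solid and that of all genes tested as a dotted line. Filled points appear in 2 comparisons, 76 of 82 lower in the inverse controls over time and 9 of 82 higher in inverse co-culture at 72 h.

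Inverse co-cultured PSC had higher ribosomal protein levels than their controls at 72 h: 81 of 82 members tested had a higher mean, and 9 rose past the test. Among all 13066 genes, 31.7% had a higher mean, 12.8% were called in either direction and 3.27% were called higher. The members' median log2 fold change was 0.31, 1.24-fold, while the median of all genes was -0.16, a shift of 0.47 between them, and 55 members had an unadjusted p under 0.05 (4205 of all genes). The 9 called were Rpl12, Rpl37, Rpl10a, Rpl28, Rpl13 and Rpl30 of the large and Rps18, Rps3 and Rps20 of the small subunit, with adjusted p from 0.0284 to 0.0494. The median was 0.31 over the large and 0.32 over the small subunit. This comparison uses the same 72 h inverse control libraries as the change over time above, so both results rest on them.

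Rps18, at the head of the small subunit, had 449, 411 and 451 FPKM in the 72 h controls and 620, 570 and 602 FPKM in co-culture, a log2 fold change of 0.45 (SE 0.10, adjusted p = 0.0285, limma). Rpl12, at the base of the stalk, had the largest called fold change (log2 0.64, SE 0.14), with 281, 222 and 265 FPKM in controls and 386, 350 and 463 FPKM in co-culture. Rps20 had 157, 140 and 157 FPKM in controls and 198, 194 and 192 FPKM in co-culture (log2 fold change 0.37). In these 3 genes every co-culture library lay above every control library, as it did for the other 6. All were picked by the test on these same libraries, so the separation adds no support to it.

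Rpl37 had 123, 113 and 101 FPKM in controls and 156, 146 and 156 FPKM in co-culture, and Rpl30, which binds its own message, 88.5, 85.0 and 86.8 against 120, 111 and 107 FPKM. Rpl28, absent from yeast ribosomes, had 289, 263 and 307 against 402, 343 and 412 FPKM, and Rpl13, linked to a skeletal dysplasia, 472, 433 and 503 against 621, 596 and 673 FPKM. The log2 fold changes were 0.45 for Rpl37, 0.38 for Rpl30, 0.43 for both Rpl28 and Rpl13, 0.43 for Rpl10a and 0.41 for Rps3, which also takes part in DNA repair. Rpl13 had 781, 811 and 802 FPKM in the 24 h controls. As a set, the members took a mean of 6.42% of the FPKM sum in 24 h inverse controls and 5.07% in 72 h inverse co-culture.

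Larger fold changes with more spread did not pass the test. Rpl21 (log2 0.88, SE 0.25, adjusted p = 0.0564, limma), Rpl17 (0.89, SE 0.31) and Rps27a (0.83, SE 0.34) were of this kind. For Rps27a the 3 co-culture libraries had 189, 79.0 and 69.6 FPKM, so that 1 library carried most of the difference. Of the members with a fixed place in the description, Rplp1 had a log2 fold change of 0.47 (adjusted p = 0.0592, limma), Rplp0 0.39, Rplp2 0.32, Rpsa 0.31, Rps6 0.36, Rpl5 0.30, Rpl11 0.31 and Rpl23 0.32, all with an adjusted p over 0.05. Rpl37a had 237, 227 and 215 FPKM in controls and 279, 267 and 194 FPKM in co-culture, which overlap. Rpl24, close to 0 throughout, was the member with a lower mean.

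The number of calls in this comparison turned on single libraries and on the scaling. It was 0 without control replicate 1, control replicate 2 or co-culture replicate 1, 1 without control replicate 3, and 7 without co-culture replicate 2 or 3, while the members' median stayed 0.43 to 0.51 above that of all genes. Dividing each library by its median gene ratio called 51 members higher, beside 5.71% of all genes, and turned the split of all calls from 427 higher and 1251 lower to 746 and 686, and voom called 18, beside 3.96% of all genes called higher by it. Beside the rise, the epithelial markers summed to 0 to 0.176 FPKM in the controls, with 4 of 5 at 0 in every library, and 1.26 to 7.63 FPKM in co-culture, the macrophage markers to 106 to 198 and 45.8 to 71.6 FPKM, and the adipocyte markers to 393 to 829 and 22.7 to 93.6 FPKM, and their part in the rise was not tested. Mitochondrially encoded genes took 1.53% to 1.82% of the FPKM sum in controls and 1.01% to 1.17% in co-culture, and without them the members' share was 4.10% ± 0.236 and 5.12% ± 0.251 (SD, n = 3).

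At 24 h the difference between inverse co-culture and control was smaller, in the same direction, and passed the test for no member. The median log2 fold change was 0.11, against -0.06 over all genes, and 76 of 83 members had a higher mean, beside 37.9% of all genes. None was called by limma, beside 2.47% of all genes, or by voom, which called 528 of all genes. An unadjusted p under 0.05 was found for 3 members and 1902 of all 12827 genes, so for a smaller share of the members. The 3 were Rpl17 (log2 0.82), Rps12 (0.37) and Rps25 (0.26). The share of the FPKM sum was 6.42% ± 0.185 in controls and 6.80% ± 0.203 in co-culture (SD, n = 3). The epithelial markers, summed, were highest here, 1.84 to 39.6 FPKM in co-culture against 0.301 to 0.370 FPKM in controls, and their part was not tested.

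In the standard model no member differed between co-culture and control past the test. At 24 h the median log2 fold change was -0.01 over 82 members and -0.01 over all genes, and at 72 h it was 0.08 over 83 members and -0.09 over all genes. Limma and voom called 0 members at either time, beside 0% of all genes at both. By limma, 0 members had an unadjusted p under 0.05, beside 371 of all genes at 24 h and 800 at 72 h. With the replicate number as a block, 0 members were still called at either time. Of all genes, 1.22% were called at 24 h, 85 higher and 72 lower, and 0.00777% at 72 h. In that fit 2 members at 24 h and 0 at 72 h had an unadjusted p under 0.05, beside 1932 and 1388 of all genes. Relative to all genes, the members' median at 24 h changed sign with single libraries, from -0.12 without control replicate 3 to 0.12 without control replicate 1. At 72 h, 71 of 83 members had a higher mean, beside 34.5% of all genes. Rps18 had 671, 576 and 527 FPKM in the 72 h controls and 682, 678 and 583 FPKM in co-culture, which overlap, with co-culture higher in 3 of 3 replicate numbers by 10.7, 102 and 55.7 FPKM.

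**Figure D3:**
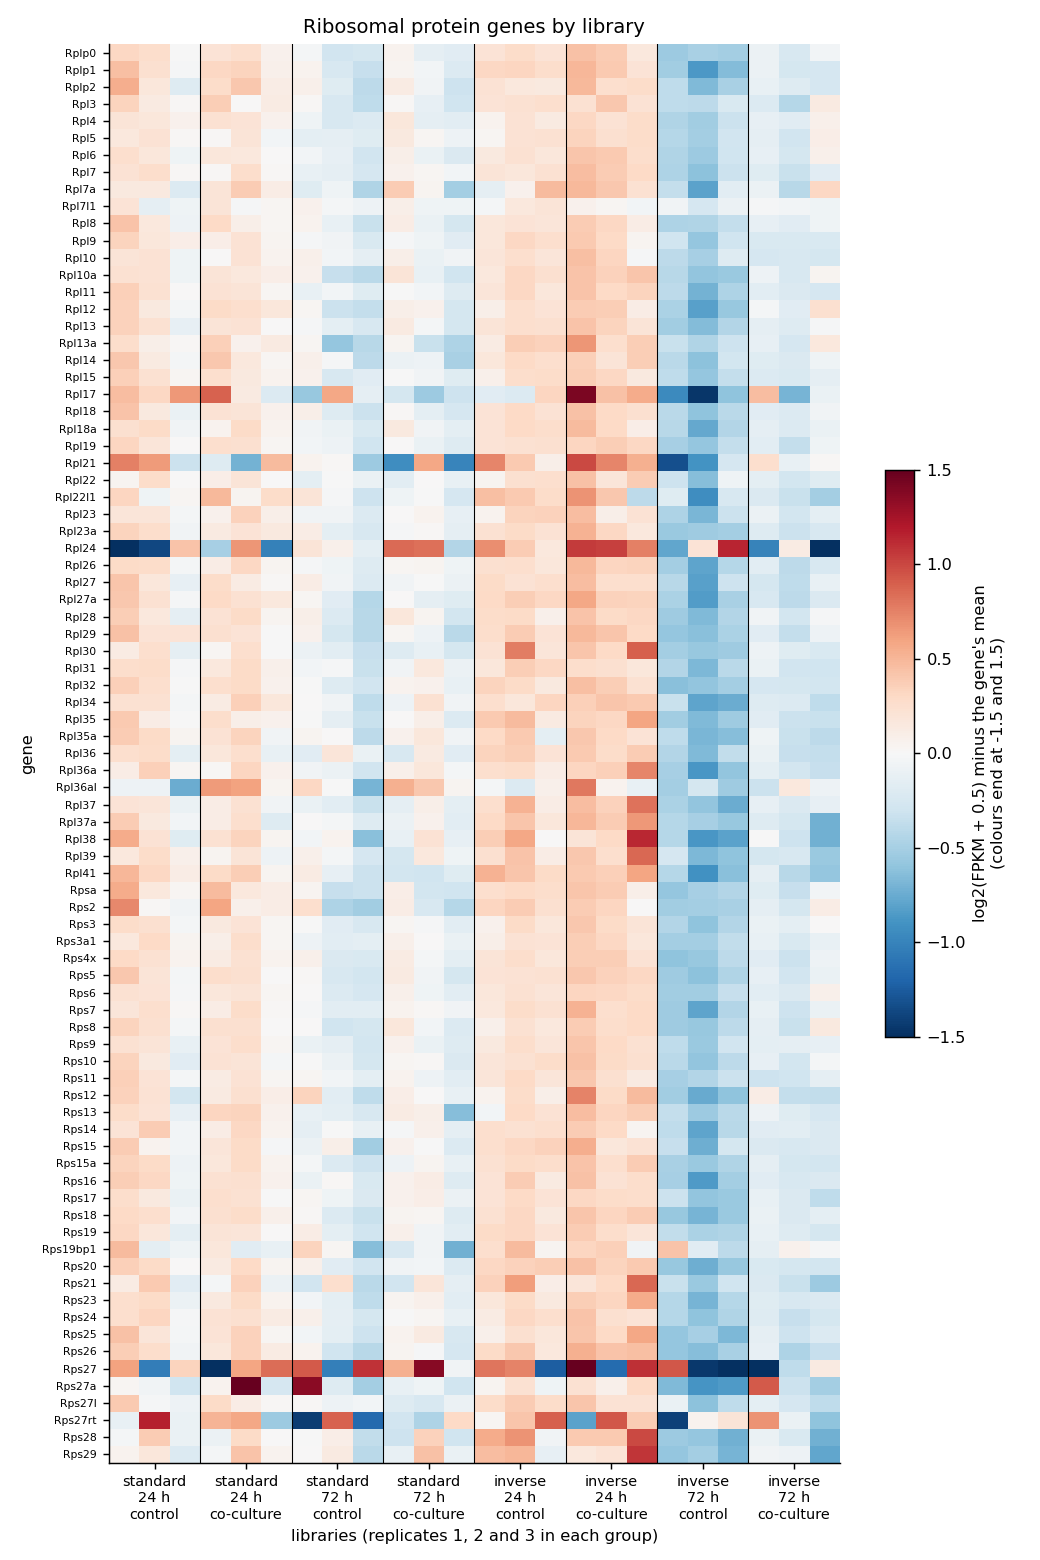
Log2(FPKM + 0.5) of each member minus its mean over the 24 libraries (colour, ends at -1.5 and 1.5), with genes in rows and libraries in columns by group. The 3 inverse 72 h control libraries are blue in nearly all rows, and Rps27, Rps27rt, Rpl24, Rpl17 and Rpl21 scatter within groups.

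The test of the difference between models, an interaction over all 24 libraries, called no member. At 72 h the co-culture effect was larger in the inverse than in the standard model by a median of 0.23 on the log2 scale over 83 members. Over all genes the median was -0.07. A larger value was found for 78 members, beside 41.2% of all genes. No gene was called (0% of 14452, and 0 members with voom). An unadjusted p under 0.05 was found for 501 of all genes and for 5 members: Rps3, Rps20, Rpl12, Rpl21 and Rpl17. At 24 h the median was 0.11 against -0.05, with 0% of genes and no member called by limma or voom. At that time 1 member and 182 of all genes had an unadjusted p under 0.05. The rise in the inverse model is therefore not shown to differ from the standard model for any single member.

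Mono-cultured controls of both models were compared at each time, since they enter every co-culture fold change. At 24 h the median of inverse minus standard controls was 0.07 over 83 members and 0.06 over all genes. An unadjusted p under 0.05 was found for 1 member and 225 of all genes. Without standard replicate 3 the members' median was -0.03. At 72 h the median was -0.37 over 82 members and 0.08 over all genes. A lower mean in the inverse model was found for 79 members, beside 4864 of all 13106 genes. Of the members, 42 had an unadjusted p under 0.05 (810 of all genes). No member was called at either time by limma or voom, beside 0% of all genes at both. The shares of the FPKM sum at 72 h, 3.78% to 4.21% in inverse and 4.67% to 5.72% in standard controls, did not overlap. RNA input and medium history differed with the model.

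Co-cultured PSC were followed over time as well, in comparisons added after the controls had been seen. In inverse co-culture 83 of 83 members tested had a lower mean at 72 h than at 24 h, beside 7490 of all 12758 genes. The members' median log2 fold change was -0.53 against -0.07 over all genes. None was called by limma or voom, beside 0.00784% of all genes called by limma and 0 by voom. An unadjusted p under 0.05 was found for 75 members (1953 of all genes). With all 24 libraries in the same model, 31 were called lower, beside 0.925% of all genes. In standard co-culture the median was -0.20 against -0.07 over all genes, and 81 members had a lower mean, beside 8173 of all 12805 genes. None was called by limma or voom (0% of all genes), and 7 had an unadjusted p under 0.05, beside 467 of all genes. With the replicate number as a block, 21 members and 1597 of all genes did. Again no member was called in that fit, beside 0% of all genes. The difference of the inverse co-culture effect between 72 h and 24 h had a median of 0.19 against -0.09 over all genes. Limma and voom called 0 members, while of all genes limma called 0% and voom called 14. An unadjusted p under 0.05 was found for 8 members and for 1471 of all 13722 genes, which is a similar share. Among the 8 were Rps20 (0.32), Rpl12 (0.53), Rps2 (0.49) and Rplp1 (0.40). Rpl24 (-1.56), close to 0 FPKM, was also among them, as the only member with a negative value.

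In the inverse model, short members had lower fold changes over time than long ones. Over the 77 core members, the rank correlation (Spearman) of the log2 fold change over time with coding length was 0.58 in inverse controls and 0.72 in inverse co-culture, against -0.19 and -0.21 in the standard model. Genes are not independent replicates, and all of them share the same libraries. The 25 members with under 400 coding bases had a median log2 fold change of -0.83 in inverse controls and -0.70 in inverse co-culture, and the 52 longer ones -0.73 and -0.48. The same correlation over other genes was 0.28 in inverse controls and 0.41 in inverse co-culture, so other genes showed a relation to length as well.

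Single libraries weighed on this relation. In inverse co-culture replicate 3 at 24 h, the median of the shorter minus that of the longer members, each gene taken relative to its mean over all libraries, was 0.32 on the log2 scale, and in replicate 3 at 72 h it was -0.24. Rpl38 shows it: in inverse co-culture it had 137, 148 and 262 FPKM at 24 h and 120, 96.6 and 72.1 FPKM at 72 h. Rps28 followed with 169, 168 and 256 FPKM and then 120, 110 and 78.1 FPKM. Without 1 library at a time the correlation ranged from 0.44 to 0.77 in inverse co-culture, lowest without 72 h replicate 3, and from 0.41 to 0.67 in inverse controls, lowest without 24 h replicate 2. In the standard model it took both signs, from -0.38 to 0.03 in controls, highest without 72 h replicate 2, and from -0.45 to 0.20 in co-culture, lowest without 72 h replicate 1 and highest without 72 h replicate 2.

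**Figure D4:**
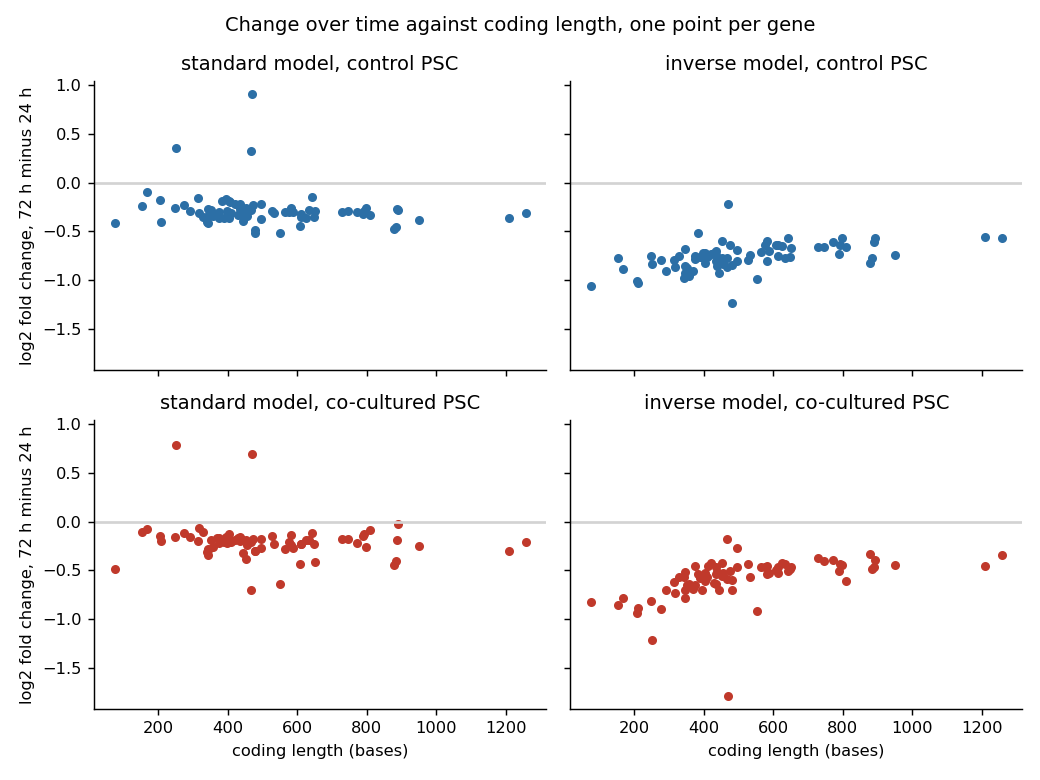
Log2 fold change of each core member, 72 h minus 24 h (y axis), against its coding length in bases (x axis), in 4 panels for control and co-cultured PSC of both models. Points rise with length in both inverse panels (rank correlation 0.58 and 0.72), while the values in the standard panels (-0.19 and -0.21) change sign when single libraries are left out.

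Members varied together across libraries. The correlation (Pearson, log2 scale) of a member with the mean of the other members over the 24 libraries had a median of 0.94, as a description with time and model differences included, and 59 of 83 members lay above 0.9. Within groups, after subtracting each group's mean, the median was 0.74. Rps18 followed the others most closely (0.99) and Rps20 nearly so (0.98). The 4 members under 0.5 were Rpl24 (0.14), Rps27 (0.25), Rps27rt (0.28) and Rps19bp1 (0.45). Of 14369 genes outside the members, the 5 most like their mean were Rps12-ps3 (0.97), Rps10-ps2 (0.96), Fau (0.96), Gm4332 (0.96) and Gm6472 (0.95). Fau encodes the ubiquitin-like fusion of the ribosomal protein eS30, which its symbol keeps outside the rule, and Rps10-ps2, Gm4332 and Gm6472 are annotated as processed pseudogenes.

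Ribosomal protein genes have many processed copies in the genome, and reads that fit several places were left out by the default of the counting tool. Of the 86 members, 29 had all 50-base stretches of their coding sequence in another annotated gene, 4 had none, and the median was 90.9%. The 45 tested members with at least 90% of stretches shared had a median log2 fold change of -0.76 in the inverse controls over time and 0.32 in inverse co-culture at 72 h, and the 37 tested with less had -0.75 and 0.31. Of the called members, 41 of 76 and 4 of 9 had at least 90% shared. Levels of single members with copies remain uncertain, Rpl24 above all, with a mean of 1.33 FPKM and 99.3% of its stretches in Gm9385, Gm28037 or other genes.

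All 50-base coding stretches of Rps27, a zinc finger protein of the small subunit, and of Rps27rt, a retrotransposed copy on chromosome 9, occur in each other or in Gm17241, so their single values are uncertain. Rps27 had 8.08% to 73.0% of the fragments of Rps27, Rps27rt and Gm17241 summed, and libraries of the same group lay at opposite ends, as the inverse 72 h controls with 70.8%, 14.5% and 11.6% show. Their sum was steadier, 94.4 to 197 fragments per 1000000. In inverse controls the sum was 161 ± 11.4 at 24 h and 101 ± 4.17 at 72 h (SD, n = 3), and in inverse co-culture 175 ± 9.89 and 112 ± 22.7. Taken singly, neither gene was called in any comparison, with log2 fold changes in inverse controls of -0.83 (SE 0.73) for Rps27 and -0.83 (SE 0.39) for Rps27rt. The sum in these controls did not overlap between 24 h and 72 h libraries.

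**Figure D5:**
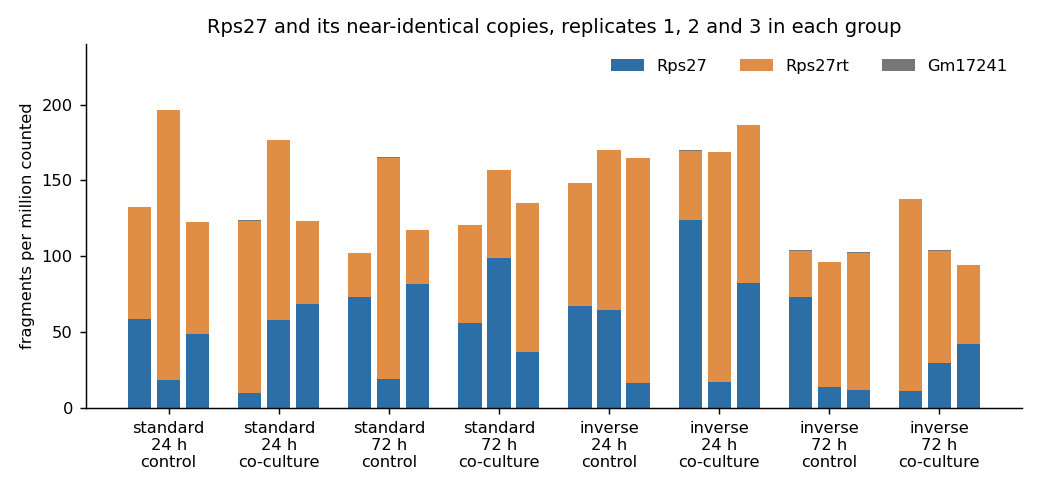
Fragments per 1000000 counted (y axis, from 0) of Rps27, Rps27rt and Gm17241, stacked, in each of the 24 libraries (x axis, by group). The split between Rps27 and Rps27rt varies from library to library, while the total stays between 94.4 and 197.

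Genes around ribosome production were described by list in the inverse controls between 24 h and 72 h, where 9.05% of all genes were called lower and 10.2% higher. Of 27 translation factors and other messages with a 5′ terminal pyrimidine tract, 15 fell and none rose, with a median log2 fold change of -0.44, among them Rack1 (-0.69), which sits on the small subunit, Eef1b2 (-0.68) and Eef1a1 (-0.53) of the elongation step, and Fau (-0.65). Of 36 ribosome biogenesis factors 3 fell (Nhp2 -0.61, Rrp9 -0.42, Nop58 -0.41; median -0.13), and of 14 genes of RNA polymerase I and its factors, which make ribosomal RNA, 1 fell (Znrd1, -0.43), both close to the share of all genes called lower. All 15 proliferation genes fell, with a median of -1.35, for example Plk1 (-1.81) and Cdk1 (-1.35). Of 75 mitochondrial ribosomal protein genes tested 12 fell, with a median of -0.24, led by Mrpl52 (-0.92). Of 17 growth control genes tested, Deptor (0.77), an mTOR inhibitor, Eif4ebp2 (0.44) and Rps6kb1 (0.31) rose and Eif4ebp1 (-0.53) and Rheb (-0.41), an mTOR activator, fell, and of 10 p53 response genes Trp53inp1 (0.63) and Zmat3 (0.36) rose. Without single libraries these counts became 8 to 17 for the translation factors, fewest without 24 h replicate 2, 0 to 2 for biogenesis, 0 to 1 for polymerase I, 10 to 15 for proliferation, 2 to 9 for mitochondrial ribosomal proteins, 2 to 4 for growth control and 1 to 2 for p53 genes, each of the last 6 ranges lowest or equal lowest without 24 h replicate 2.

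In inverse co-culture at 72 h, where 3.27% of all genes were called higher and 9.57% lower, 3 of the 27 translation factors and TOP messages rose (Nap1l1 1.01, Rack1 0.49, Eef1b2 0.45) and Eif4a2 fell (log2 fold change -0.59), with a list median of 0.08. No biogenesis factor and no polymerase I gene was called by limma, although 5 and 0 of them had an unadjusted p under 0.05 and voom called 1 and 0. Myc, which raises ribosomal protein gene transcription, rose from 14.8 ± 1.37 to 35.8 ± 10.6 FPKM (SD, n = 3; log2 fold change 1.21), Deptor fell from 26.9 ± 0.990 to 7.10 ± 2.95 FPKM, and Rps6kb1, the S6 kinase, had a log2 fold change of -0.44 and was called lower. Of the proliferation genes 7 of 15 rose, with a median of 0.90, led by Top2a (1.18) and Ccnb1 (1.06). Phlda3 of the p53 genes (-0.61) and 4 of 75 mitochondrial ribosomal protein genes fell, led by Mrps6 (-0.98). Without single libraries the calls were 0 to 4 for the translation factors, 1 to 3 for growth control, 0 to 9 for proliferation, 0 to 2 for p53 genes and 1 to 2 for mitochondrial ribosomal proteins, with the lowest values without control replicate 3 and, except for growth control, without co-culture replicate 1. At 24 h in inverse co-culture, where 2.47% of all genes were called, Rrs1, a 60S assembly factor, was the only gene of these lists that passed (log2 fold change 0.64). No gene of the 7 lists was called in the standard model, between the controls of both models or in the differences between models, beside 0% of all genes in each.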

How the data were processed

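RNA of PSC was sequenced in 24 libraries. FPKM values per gene were deposited by the authors. Per the labels, reads were aligned with HISAT2 2.0.5 to GRCm38 (mm10) and counted with featureCounts 1.5.0-p3, and the notes also name DESeq2 1.20.0. Groups came from the sample titles. For the 28892 genes above 0 in any library, whole fragments could be recovered from FPKM in all 24 libraries (tolerance 0.003). The mean transcript length was used for 27199 and a length found by search for the other 1693.

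Comparisons used limma 3.58.1 (R 4.3.3) with intensity trend on log2(FPKM + 0.5), two-sided, for genes above 1 FPKM in at least 3 libraries compared, with Benjamini-Hochberg adjustment over all genes tested and a limit of 0.05. The fit was tested on simulated data. Fold changes on this scale understate changes of low genes. Nothing in the labels says that replicates came from separate isolations, so p-values measure the spread between these libraries. Same-numbered libraries of the standard model deviated together (Pearson r 0.38 to 0.82), a pairing read from the data and the shared numbers in the titles. Those of the inverse model did not (r -0.17 to 0.21).

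Named were up to 10 called members per direction and comparison by fold change, the paralogs with partners, Rps27a, the stalk, Rpsa, Rps6, Rpl37a, Rpl5, Rpl11, Rpl23, Rps19bp1 and the members with extreme levels. Rpl4, Rpl24, Rpl17, Rpl7a, Rpl29, Rps2, Rps12, Rps25, further list genes and those with large spread were named after their values were seen. Members and lists were chosen with earlier results of these data known. Alternatives were other pseudocounts, filters, scalings and fits, voom on recovered fragments, a replicate block and leaving out each library. The other alleles of the KPC line are not reported here.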

Additional observations from a re-analysis of the deposited data

How the results depend on the processing

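For inverse co-culture against control at 72 h, the 9 members called became 1 without a filter on low values, 1 without the intensity trend, 51 after dividing by median gene ratios and 18 with voom, and 0 to 7 without single libraries. With the replicate number as a block it was 1, although numbers do not pair libraries in the inverse model. Pairing by number changed no other call count of members by over 1.5 times, although over all genes it raised the calls in standard co-culture at 24 h from 0 to 157. Quantile normalization moved the members' median relative to all genes from 0.17 to 0.11 in inverse co-culture at 24 h, from 0.47 to 0.29 at 72 h, from -0.80 to -0.55 in inverse controls over time and from -0.44 to -0.26 between controls at 72 h. Without the 50 other genes of highest mean FPKM, the differences in share of the FPKM sum were 0.698 (instead of 0.38), 1.66 (1.03) and -2.95 (-2.39) percentage points for co-cultured against control PSC of the inverse model at the early and late time and for its controls over time. The causes were not tested beyond the construction of each alternative. No called value changed sign. Among values without calls, leaving out single libraries moved the members' median relative to all genes across 0 in standard co-culture at 24 h (-0.12 to 0.12) and between the controls of both models at 24 h (-0.10 to 0.14). With 3 libraries per group, an exact permutation test over samples cannot go below 0.1.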
